A study of Mus musculus with 34 samples.

Results

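The 38 genes described here build or mark the scar-forming compartment of the liver: fibrillar collagens, collagen VI, basement membrane components, matrix glycoproteins, collagen cross-linking enzymes, contractile and cytoskeletal genes, the PDGF receptors, and markers of quiescent stellate cells and pericytes. They were taken by gene symbol from count tables that hold 28598 symbols, and all 38 were found both in the hepatocyte table (24951 symbols) and in the macrophage table (26233 symbols). Every mouse carried floxed alleles of Yap and Taz (Yap fl/fl Taz fl/fl, mixed B6;129P background). Knockout (KO) mice also carried Opn-CreERt2, a tamoxifen-inducible Cre driven by the osteopontin promoter, which directs deletion to bile duct cells. Their Cre-negative siblings were the controls. All mice, controls included, received tamoxifen at 1.6 mg/kg on 5 days at an age of 7 to 8 weeks, and 3 weeks were left for it to clear. Some mice of either genotype were then given the hepatotoxin carbon tetrachloride (CCl4) at 1 ml/kg 48 h before harvest. Hepatocyte libraries came from 4 KO mice with CCl4, 3 control mice with CCl4, 5 KO mice without CCl4 and 6 control mice without CCl4, and macrophage libraries from 4 mice in each of these groups. Apart from mouse 11, every mouse with a macrophage library also had a hepatocyte library. A result seen in both fractions is therefore not a replication in other mice.

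Hepatic stellate cells are the vitamin A-storing pericytes of the liver sinusoid. In the quiescent state they express Lrat, the enzyme that esterifies retinol, and Reln, a secreted glycoprotein. After injury they lose retinoid stores, acquire contractile proteins such as smooth muscle actin (Acta2) and transgelin (Tagln), respond to PDGF through Pdgfrb, and deposit fibrillar collagen. Neither sorted fraction is a stellate cell fraction. Hepatocytes were collected on Percoll and sorted for exclusion of propidium iodide, and macrophages as F4/80+ CD45+ UV- PI- cells, a gate that leaves out cells fluorescing under ultraviolet light, as retinoid-laden stellate cells do. The question put to these libraries was therefore whether activation genes changed apart from the level of quiescent stellate markers carried in the same library.

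Promoter sequences are shown for the member with the largest log2 fold change by genotype in hepatocyte libraries (Nid1), for the contractile marker Acta2, and for the pair Col4a1 and Col4a2, which were called together in 2 hepatocyte comparisons. They run from 250 bases before to 50 bases after the annotated start, from RefSeq on GRCm38.p6. Promoters were found for 25 of the 38 genes. For Nid1 (chr13:13437352-13437651, plus strand) and Acta2 (chr19:34255324-34255623, minus strand) capitals mark GGAATG, the core recognised by TEAD factors, the DNA-binding partners of YAP and TAZ.
Nid1: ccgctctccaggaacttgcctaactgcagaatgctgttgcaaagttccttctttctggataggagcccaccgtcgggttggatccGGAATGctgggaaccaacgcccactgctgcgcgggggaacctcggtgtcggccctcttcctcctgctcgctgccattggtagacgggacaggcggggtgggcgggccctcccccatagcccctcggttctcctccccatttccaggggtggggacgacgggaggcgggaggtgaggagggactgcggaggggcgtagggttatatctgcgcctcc
Acta2: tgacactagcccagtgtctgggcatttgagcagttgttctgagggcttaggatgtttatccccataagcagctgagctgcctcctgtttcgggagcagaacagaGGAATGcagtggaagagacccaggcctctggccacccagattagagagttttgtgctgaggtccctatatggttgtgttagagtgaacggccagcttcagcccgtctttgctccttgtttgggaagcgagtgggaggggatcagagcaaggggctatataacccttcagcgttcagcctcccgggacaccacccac
This core, read on both strands, is in 14.7% of 32851 mouse promoters of that length, and 6 of the 25 member genes hold it (Acta2, Col18a1, Col3a1, Col6a2, Lrat and Nid1). In Nid1 it starts at position -165 and in Acta2 at -146 relative to the start. The AP-1 motif TGANTCA, present in 7.81% of promoters, was found in Col6a1 and Ecm1. The exact CArG box CCWWWWWWGG (W is A or T), present in 1.63%, was found in Myl9. Near matches were not searched for, so a gene not listed, Acta2 included, can still hold a variant CArG box. No promoter held 2 different motifs of these, so none overlapped. Col4a1 (chr8:11312777-11313076, minus strand) and Col4a2 (chr8:11312555-11312854, plus strand) encode the 2 main chains of collagen IV and start head to head, and capitals mark the 78 bases that both windows cover, each printed on its own gene's strand.
Col4a1: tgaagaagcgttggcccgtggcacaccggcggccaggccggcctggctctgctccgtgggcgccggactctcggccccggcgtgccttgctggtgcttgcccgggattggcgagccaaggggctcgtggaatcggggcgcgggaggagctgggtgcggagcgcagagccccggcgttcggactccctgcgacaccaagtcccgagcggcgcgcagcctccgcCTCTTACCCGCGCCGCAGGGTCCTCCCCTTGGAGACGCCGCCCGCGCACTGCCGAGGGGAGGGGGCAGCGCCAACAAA
Col4a2: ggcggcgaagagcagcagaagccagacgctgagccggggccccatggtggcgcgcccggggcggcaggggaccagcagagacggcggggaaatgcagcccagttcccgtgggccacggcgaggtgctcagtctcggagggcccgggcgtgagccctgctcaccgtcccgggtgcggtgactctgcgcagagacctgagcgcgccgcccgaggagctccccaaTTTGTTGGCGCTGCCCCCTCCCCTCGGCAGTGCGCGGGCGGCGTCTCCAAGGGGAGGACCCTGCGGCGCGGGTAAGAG

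The total count was 931496 to 7535053 in a hepatocyte library and 596380 to 5128587 in a macrophage library, so that 3 counts stood for 0.398 to 5.03 CPM, the count scaled to a common library size. These limits rest on the total count alone, whereas the CPM below also carry a scaling factor per library (TMM). Summed over 10 hepatocyte markers, hepatocyte libraries reached 53622 to 120916 CPM. Macrophage libraries reached 7151 to 25631 CPM over 12 Kupffer cell and macrophage markers, but also held 383 to 30614 CPM of hepatocyte markers and 541 to 3735 CPM of 12 sinusoidal endothelial markers. Yap1 and Wwtr1 were not called by genotype in either fraction (log2 fold changes -0.21 to 1.11), which is no check of the deletion because bile duct cells were not sorted. The CCl4 libraries of mouse 15 (hepatocytes) and mouse 11 (macrophages) have 1 label that names the KO while their genotype and group labels name the control, and they were kept as controls. The alternative without these libraries kept the macrophage library of mouse 15. Sequencing files fell into 2 numbered series, and the first of them, with 5 hepatocyte and 2 macrophage libraries, held no KO library.

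The mesenchymal content differed widely between libraries of a group. Summed over 12 quiescent stellate markers (Lrat, Reln, Hand2, Rgs5, Colec11, Hgf, Tcf21, Cygb, Ngfr, Vipr1, Angptl6 and Lhx2), hepatocyte libraries had 44.8 to 105 CPM in KO mice with CCl4, 69.2 to 270 CPM in control mice with CCl4, 37.7 to 269 CPM in KO mice without CCl4 and 0.902 to 164 CPM in control mice without CCl4. Macrophage libraries had 161 to 919, 51.9 to 509, 248 to 1153 and 93.9 to 199 CPM in the same 4 groups. A lower sum can stand for fewer stellate cells or for less of these RNAs per cell, and bulk counts cannot tell these apart. Among macrophage libraries of KO mice with CCl4 the sum was 919 and 902 CPM in mice 13 and 14 and 447 and 161 CPM in mice 17 and 18. In control mice with CCl4 it was 509 and 303 CPM in mice 11 and 12 and 70.8 and 51.9 CPM in mice 15 and 16. Hepatocyte markers summed to 7340 to 30614 CPM in mice 11 to 14 and to 383 to 2810 CPM in mice 15 to 18.

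In hepatocyte libraries of control mice, CCl4 raised the contractile genes most. Of 30 members that passed the filter on low counts, 16 rose and 1 fell (quasi-likelihood test of edgeR, p adjusted over all genes under 0.05), against 27.4% of the 9679 genes tested that were called either way, 13.7% higher and 13.7% lower. Their median log2 fold change was 2.04, and that of all genes was -0.01. The other 8 members (Col6a2, Col15a1, Nid2, Lama4, Lox, Myl9, Des and Dpt) had at most 43 counts in any hepatocyte library and were not tested.

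Tagln, which encodes an actin-binding protein of smooth muscle and myofibroblasts, had 7.80, 17.2 and 45.9 CPM in the 3 control mice with CCl4, and a lowest, median and highest value of 0, 0.405 and 2.35 CPM in the 6 control mice without it. All 3 treated libraries lay above all 6 untreated ones, and the highest was the library of mouse 15. The log2 value of Tagln rose by 5.09 (SE 0.59, adjusted p = 3.81e-07). Acta2, the smooth muscle actin that defines the myofibroblast, had 18.7, 32.5 and 39.7 CPM in control mice with CCl4, against 0, 0.673 and 5.30 CPM (lowest, median and highest) in those without it. Again the groups did not overlap, and Acta2 rose by 4.52 (SE 0.78, adjusted p = 0.000205). Vimentin (Vim), the mesenchymal intermediate filament protein, had 79.1, 105 and 167 CPM against 2.55, 11.9 and 74.3 CPM (lowest, median and highest) and rose by 2.75 (SE 0.75, adjusted p = 0.0131). Its untreated maximum was the library of mouse 19. Desmin (Des), an intermediate filament protein of stellate cells, was too low to test, at 2.48, 5.50 and 6.03 CPM in control mice with CCl4, while 4 of the 6 libraries without it had 0 counts.

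**Figure D1:**
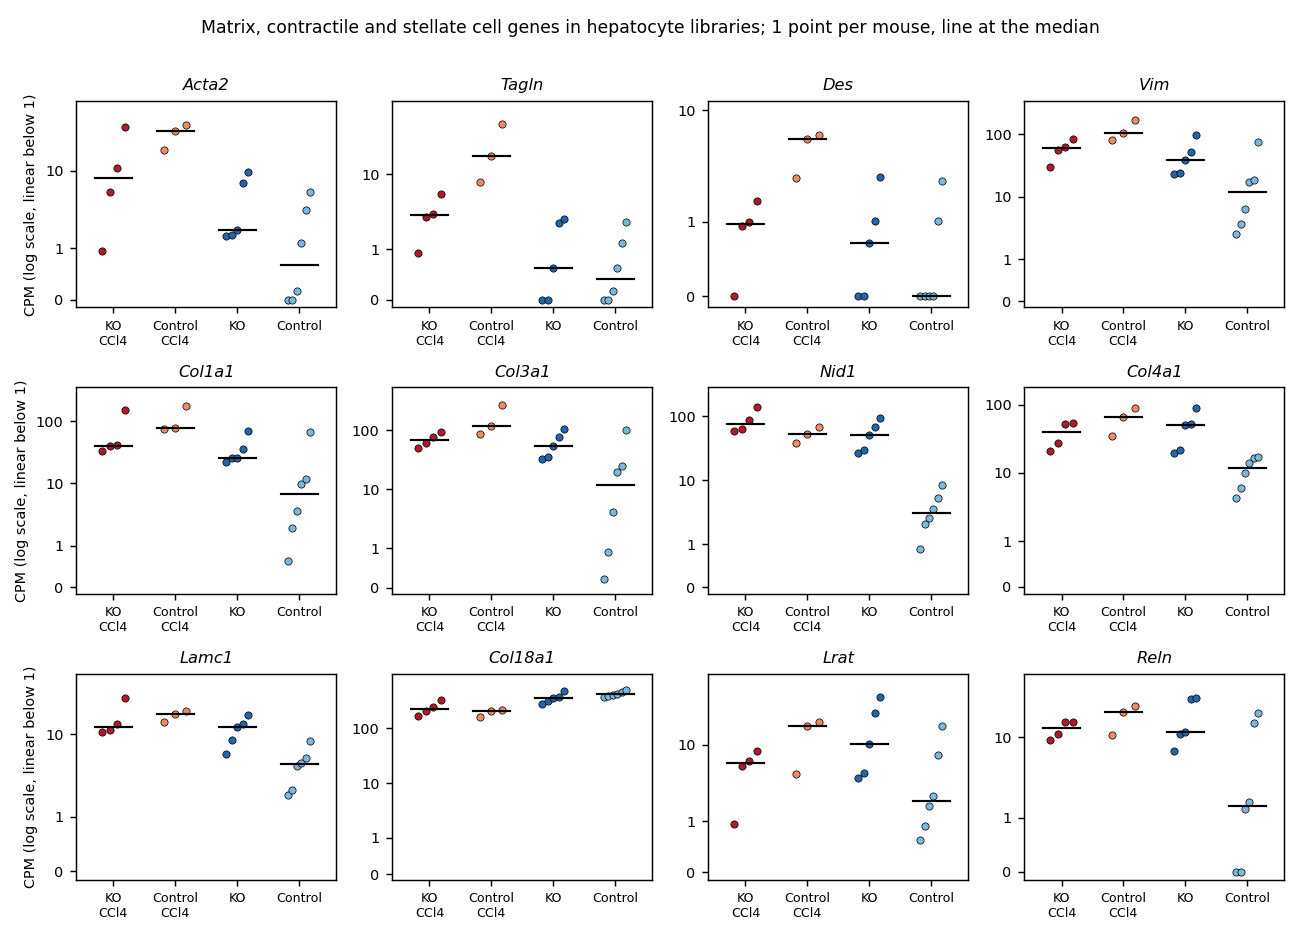
CPM of 12 members in each hepatocyte library, on axes that are logarithmic above 1 CPM and linear below, with KO and control mice after CCl4 on the left and without CCl4 on the right; points are mice and lines are medians. Tagln lay at 0.938 to 5.42 CPM in KO mice with CCl4 and at 7.80 to 45.9 CPM in control mice with CCl4, and Nid1 was lowest, at 0.902 to 8.49 CPM, in control mice without CCl4.

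Among fibrillar collagens, which form the load-bearing fibres of scar, Col1a1, Col3a1 and Col5a1 rose and Col1a2 and Col5a2 were not called. Col1a1 had 74.7, 79.0 and 173 CPM in control mice with CCl4, and 0.637, 6.72 and 65.8 CPM (lowest, median and highest) in control mice without it. Col3a1 had 84.3, 119 and 263 CPM against 0.212, 11.9 and 102 CPM. The groups of Col1a1 did not overlap, whereas those of Col3a1 did, because the untreated library of mouse 19 stood near the treated ones for both collagens. Col1a1 rose by 3.16 (SE 0.90, adjusted p = 0.0169), Col3a1 by 2.85 (SE 0.93, adjusted p = 0.0334) and Col5a1 by 3.37 (SE 0.65, adjusted p = 0.000672). Col6a3, a chain of the beaded microfibril collagen VI, rose by 3.00, Loxl2, which cross-links collagen, by 2.68, the small proteoglycan lumican (Lum) by 3.12, the collagen-binding glycoprotein Sparc by 2.52 and the PDGF receptor Pdgfrb by 3.23. Fibronectin (Fn1), which hepatocytes themselves secrete, had a log2 difference of -0.04 (SE 0.18).

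Of 6 basement membrane members tested, 5 rose and 1 fell. Nidogen 1 (Nid1), which links the laminin and collagen IV networks, had 37.9, 53.2 and 67.4 CPM in control mice with CCl4, and 0.902, 3.03 and 8.49 CPM (lowest, median and highest) in control mice without it. The groups were far apart. Nid1 rose by 3.88 (SE 0.44, adjusted p = 4.03e-06). The collagen IV chain Col4a1 had 34.7, 66.98 and 89.0 CPM against 4.25, 12.004 and 16.97 CPM and rose by 2.58 (SE 0.49, adjusted p = 0.000818), with its neighbour Col4a2 at 1.69 (SE 0.37, adjusted p = 0.00172). The laminin chain Lamc1 had 13.9, 17.6 and 19.1 CPM against 1.80, 4.33 and 8.22 CPM and rose by 1.93 (SE 0.33, adjusted p = 0.000201), and Lamb1 rose by 1.79 (SE 0.63, adjusted p = 0.0413). Col18a1, whose product carries the endostatin fragment and which hepatocytes express, went the other way. It had 158, 209 and 214 CPM in control mice with CCl4, and 366, 419 and 499 CPM (lowest, median and highest) without it, with no overlap, and fell by 1.13 (SE 0.21, adjusted p = 0.000478).

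None of the 5 quiescent stellate and pericyte members was called. Lrat had 4.20, 17.5 and 19.9 CPM in control mice with CCl4, against 0.637, 1.84 and 17.6 CPM (lowest, median and highest) without it, a log2 difference of 1.75 (SE 0.82, adjusted p = 0.128). Reln had 10.7, 20.6 and 24.4 CPM against 0, 1.42 and 19.95 CPM, a log2 difference of 1.64 (SE 0.73, adjusted p = 0.109). For both genes the untreated libraries of mice 6 and 7 lay within the treated range. Rgs5, a pericyte regulator of G-protein signalling, Hand2, a transcription factor of stellate cells, and the matrix protein Ecm1 had log2 fold changes of 1.03, 0.95 and 0.68. Of the 14 quiescent markers as a list, 10 were tested and 2 rose, Cygb, a stellate cell globin (2.79), and Hgf, the hepatocyte growth factor (2.37).

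When the level of the 12 quiescent markers entered the fit as a term, 10 members still rose and Col18a1 still fell, against 17.4% of all genes called. All 11 had been called without the term. They were Tagln, whose log2 fold change was 4.07 with the term (SE 0.68, adjusted p = 0.000122), Acta2 (3.40, SE 0.85, adjusted p = 0.00891), Nid1 (3.21, SE 0.41, adjusted p = 2.31e-05), Lum, Col5a1, Lamc1, Col4a1, Pdgfrb, Col6a3, Loxl2 (1.67 to 2.21) and Col18a1 (-0.92, SE 0.23, adjusted p = 0.00657). Col1a1, Col3a1, Vim, Sparc, Lamb1 and Col4a2 were no longer called. The log2 fold change of Col1a1 was then 2.23 (SE 1.04, adjusted p = 0.173) and that of Col3a1 1.53 (SE 0.97, adjusted p = 0.33). Lrat, which is itself in the term, came to 0.01. Cygb and Hgf, also in the term, were themselves called higher after CCl4. The term can thus carry part of the response, and a lost call does not show that a gene follows stellate content.

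**Figure D2:**
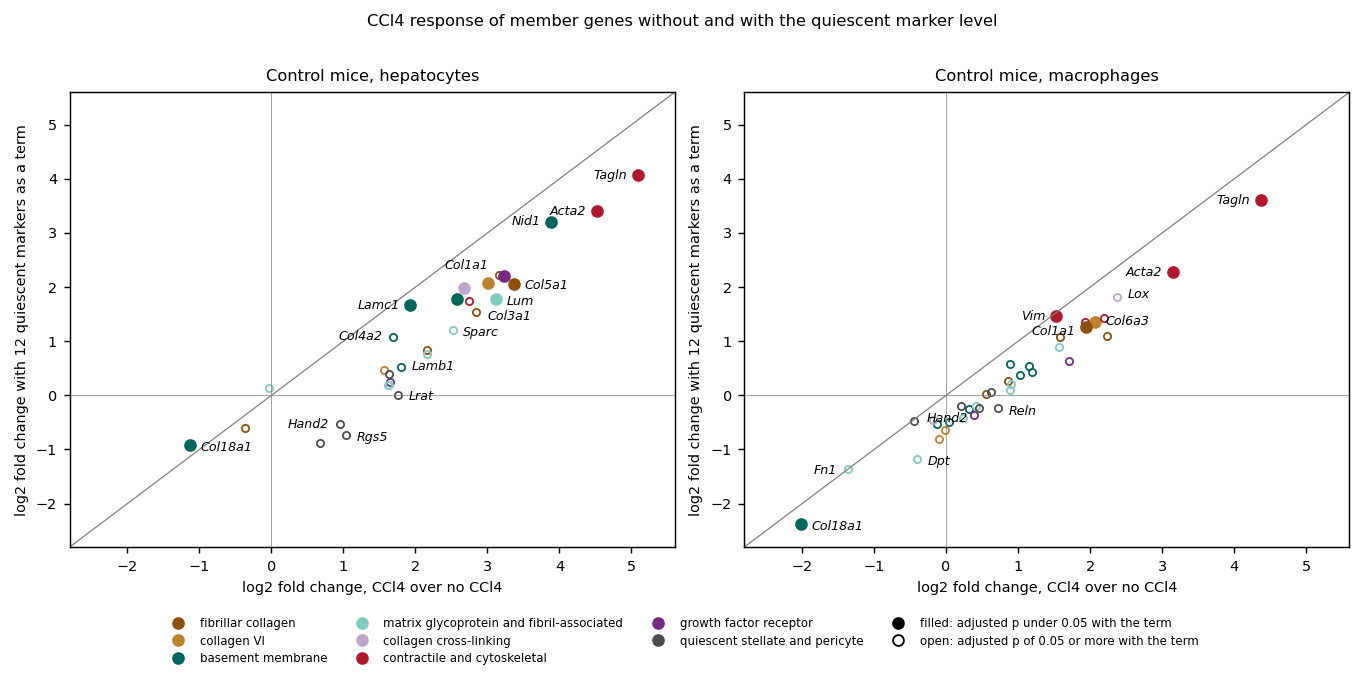
Log2 fold change of each tested member, CCl4 over no CCl4 in control mice, without (horizontal axis) and with (vertical axis) the level of 12 quiescent stellate markers as a term, for hepatocyte (left) and macrophage (right) libraries; colours give the role, filled points an adjusted p under 0.05 with the term, and the diagonal equal values. Tagln and Acta2 stood highest on both axes in both fractions. Lrat and Reln lay at -0.23 to 0.39 with the term, which is built in because both genes are among the 12 markers of the term.

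The file series bears on this comparison, since 2 of the 3 treated and 3 of the 6 untreated control libraries belong to the first series. With the series as a term 18 members were called, against 29.9% of all genes, and the log2 fold changes of Tagln, Acta2, Nid1 and Col1a1 were 5.21, 4.45, 3.84 and 3.65. The second series alone holds 1 treated control library, assumed to vary like the other groups, and called 4 members, against 4.89% of 10274 genes. They were Nid1 (4.03, SE 0.80, adjusted p = 0.0165), Col4a1, Col4a2 and Lum, while Acta2 (4.24, SE 1.26, adjusted p = 0.0732) and Tagln (3.39, SE 1.24, adjusted p = 0.115) were not. Without the library of mouse 15, Tagln rose by 4.16 (adjusted p = 1.8e-05) and Acta2 by 4.45 (adjusted p = 0.000914). Col1a1 was not called with DESeq2 (2.88) and Col3a1 not with no filter on low counts (2.92). Lamb1 was not called with DESeq2 (1.91), the legacy fit (1.81) or no filter (1.79). Leaving out 1 library at a time ended the call of Col1a1 (2.68) and Vim (2.42) without mouse 16, of Sparc without mouse 15 (2.42) or 16 (2.21), of Col3a1 without mouse 2, 7, 9, 15 or 16 (2.25 to 3.01) and of Lamb1 without mouse 2, 8, 9, 15, 16 or 19 (1.34 to 1.91).

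Other cell types left RNA in the same hepatocyte libraries. Of 12 Kupffer cell markers 5 rose after CCl4 in control mice, with sums of 380 to 498 CPM with CCl4 and 15.1 to 365 CPM without it. Of 11 tested endothelial markers Cdh5 rose by 2.30, with sums of 168 to 338 CPM and 22.7 to 363 CPM. Vascular smooth muscle markers summed to 105 to 153 CPM with CCl4 and 80.6 to 165 CPM without it. Of these markers 5 to 8 had counts in a library with CCl4 and 1 to 6 in a library without it. A sum without CCl4 could thus rest on 1 gene, and the sums do not show whether the other markers changed. The part of these cells in the change of the members was not tested, beyond the fit with endothelial markers as a term, which called 18 members, against 21.2% of all genes.

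In hepatocyte libraries of mice without CCl4, the KO raised Nid1 most, and 5 other members by less. Those 5 calls were lost with the 12 quiescent markers as a term, with the file series as a term and in the second file series alone. This comparison shares its 6 control libraries with that of CCl4 in control mice. Of 30 members 6 rose and 0 fell, against 7.87% of all genes called, 4.64% higher and 3.23% lower. Their median log2 fold change was 1.43, and that of all genes was 0.01. By an unadjusted p under 0.05, 12 members were higher and 0 lower, against 13.6% and 12.3% of all genes. Nid1 had 26.7, 29.1, 50.3, 67.4 and 94.5 CPM in the 5 KO mice, and 0.902, 3.03 and 8.49 CPM (lowest, median and highest) in the 6 controls. The lowest KO library lay above the highest control library, and the log2 fold change was 3.93 (SE 0.42, adjusted p = 2.95e-05). The other 5 called members were Col4a1 (2.15, SE 0.46, adjusted p = 0.0113), Col4a2 (1.28), Lamc1 (1.38), the collagen VI chain Col6a1 (2.14) and Lum (2.27). Col4a1 had 19.5, 21.4, 49.7, 52.6 and 89.4 CPM in KO mice against 4.25, 12.004 and 16.97 CPM in controls. Lamc1 had 5.78, 8.57, 12.1, 13.4 and 17.03 CPM in KO mice, overlapping the controls at 1.80, 4.33 and 8.22 CPM.

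Contractile genes, fibrillar collagens and quiescent markers were not called in this comparison. Acta2 had 1.44, 1.48, 1.71, 7.00 and 9.76 CPM in KO mice and at most 5.30 CPM in controls (log2 fold change 1.84, SE 0.93, adjusted p = 0.217). Tagln had 0, 0, 0.637, 2.22 and 2.57 CPM in KO mice and at most 2.35 CPM in controls (0.81, SE 0.95, adjusted p = 0.628). Both stayed low in both groups. Col1a1 had 22.3, 25.2, 25.3, 36.3 and 70.4 CPM in KO mice, and Col3a1 had 32.6, 35.5, 54.1, 75.1 and 105 CPM. These fall within or above the control ranges given above, with adjusted p = 0.262 for Col1a1 and adjusted p = 0.289 for Col3a1. Lrat had 3.70, 4.28, 10.1, 26.1 and 42.6 CPM in KO mice, with a log2 difference of 2.17 (SE 0.77, adjusted p = 0.0907). The KO libraries of mice 4 and 5 were the 2 highest for Lrat, Reln, Acta2, Col1a1 and Col3a1.

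With the 12 quiescent markers as a term, Nid1 was the 1 member called (3.34, SE 0.38, adjusted p = 5.79e-05), against 2.76% of all genes. It was also the 1 member called with the file series as a term (3.59, SE 0.53, adjusted p = 0.00247) and when fitted on the second series by itself (3.66, SE 0.67, adjusted p = 0.0354). Leaving out 1 library at a time, Nid1 and Col4a1 kept their calls, and Lamc1 lost its call without mouse 4 or 20, Col6a1 without mouse 2 or 8, Col4a2 without mouse 2, 4, 5, 8 or 20, and Lum on leaving out any of 9 libraries in turn. Col6a1 did not pass the filter on low counts without mouse 4 or 5 and was not tested there. The count of members was 2 without mouse 4, 3 without mouse 2, 5, 8 or 20, and 9 without mouse 19. Col4a1 came to 1.51 with the marker term (SE 0.41, adjusted p = 0.054) and Lamc1 to 1.17 (SE 0.39, adjusted p = 0.0943). Markers of other cells were higher in the same KO libraries: 7 of 12 Kupffer cell markers rose, with sums of 143 to 1372 CPM in KO mice and 15.1 to 365 CPM in controls, and 1 of 11 tested endothelial markers, Cdh5, rose by 2.59. With the endothelial markers as a term 3 members were called, against 3.94% of all genes. They were Nid1 (3.47, SE 0.37, adjusted p = 1.75e-05), Col4a1 (1.56) and Lum (1.53), while Col4a2 (0.84), Lamc1 (1.23) and Col6a1 (1.22) were not called. The part of Kupffer cells was not tested.

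**Figure D3:**
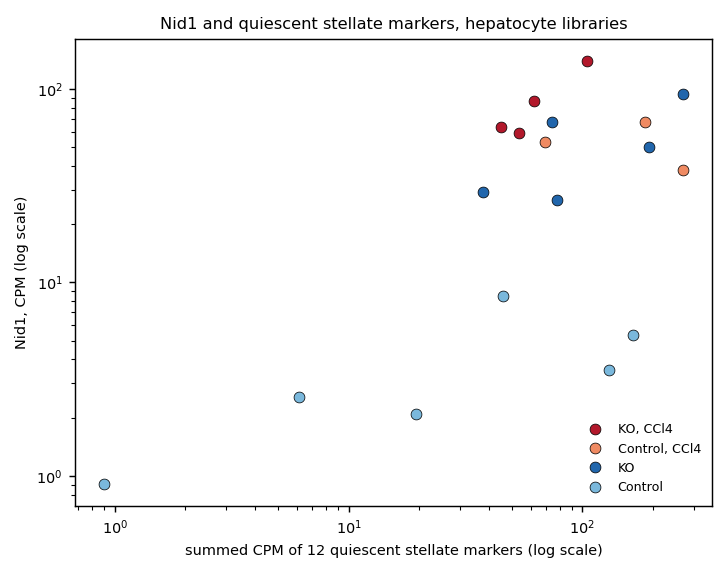
Nid1 (vertical axis, CPM) against the summed CPM of 12 quiescent stellate markers (horizontal axis) in each of the 18 hepatocyte libraries, both axes logarithmic; colours give the 4 groups. The libraries of the other 3 groups lay at 26.7 CPM of Nid1 or more, and the control libraries without CCl4 at 0.902 to 8.49 CPM over a marker range of 0.902 to 164 CPM.

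Counted per quiescent marker count, Nid1 had ratios of 1.10 to 1.42 in hepatocyte libraries of KO mice with CCl4, 0.14 to 0.769 in control mice with CCl4, 0.261 to 0.91 in KO mice without CCl4 and 0.027 to 1.00 in control mice without CCl4. The top control value is that of mouse 9, which rests on 1 count of each. In macrophage libraries the ratio was 0.079 to 0.153, 0.0526 to 0.171, 0.0726 to 0.116 and 0.0693 to 0.197 in the same 4 groups, so that these groups overlapped throughout. In the main edgeR fit, without a marker term, Nid1 was called in none of the 5 macrophage comparisons. With endothelial markers as a term it was called for CCl4 in control mice. The ratio was computed after the values had been seen and was not tested.

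After CCl4, the KO differed from the control in hepatocyte libraries by 1 member. Tagln fell by 2.97 (SE 0.59, adjusted p = 0.0165), against 0.176% of all genes called, 0.124% higher and 0.0517% lower. It had 0.938, 2.67, 2.98 and 5.42 CPM in the 4 KO mice and 7.80, 17.2 and 45.9 CPM in the 3 control mice, and the groups did not overlap. This call was lost with the 12 markers as a term (-2.29, SE 0.63, adjusted p = 0.158), with the file series as a term (-1.56, SE 0.82, adjusted p = 0.789) and without the library of mouse 15 (-2.05, SE 0.60, adjusted p = 0.363), and also without mouse 13, 17 or 18 (-2.95 to -2.76). Acta2 had 0.938, 5.34, 10.9 and 36.4 CPM in KO mice, overlapping the controls at 18.7, 32.5 and 39.7 CPM, with a log2 difference of -1.17 (SE 0.69, adjusted p = 0.472). Col1a1 had 32.8, 39.4, 40.8 and 149 CPM in KO mice, the last in mouse 14, and Col3a1 had 50.7, 61.5, 74.9 and 92.9 CPM. Their log2 fold changes were -0.74 (SE 0.92) and -1.14 (SE 0.98). Nid1 had 58.9, 63.5, 86.3 and 140 CPM in KO mice and was not called (0.74, SE 0.42, adjusted p = 0.458). By an unadjusted p under 0.05, 0 members were higher and 6 lower, against 6.92% and 5.9% of all genes.

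CCl4 in KO mice called 1 member in hepatocyte libraries, against 13.9% of all genes, 7.02% higher and 6.84% lower. Col18a1 had 166, 208, 247 and 328 CPM with CCl4, and 278, 322, 366, 375 and 479 CPM without it, and fell by 0.62 (SE 0.20, adjusted p = 0.0405). The ranges overlapped in part, and the call was lost without mouse 2, 6, 7, 8, 10, 13, 17, 18, 20 or 21 (-0.64 to -0.48). Acta2 and Nid1, at 1.51 (SE 0.78, adjusted p = 0.228) and 0.70 (SE 0.37, adjusted p = 0.242), were called once the 12 markers were a term, Acta2 at 2.34 (SE 0.78, adjusted p = 0.0498) and Nid1 at 0.96 (SE 0.30, adjusted p = 0.0339), against 14.6% of all genes. That term was chosen after the data had been seen, and with 13 quiescent markers (Steap4 added) Col18a1 was the 1 member called, against 9.61% of all genes. The difference between the CCl4 responses of KO and control mice, tested as an interaction, called Nid1 (-3.18, SE 0.59, adjusted p = 0.0393), against 0.217% of all genes, 0.0207% higher and 0.196% lower. Nid1 was already high in KO mice without CCl4, at 26.7 CPM or more. The interactions of Acta2 (-3.02, SE 1.16, adjusted p = 0.322) and Tagln (-3.77, SE 1.22, adjusted p = 0.197) missed the threshold. By an unadjusted p under 0.05, 0 members had a higher response in KO mice and 18 a lower one, against 3.42% and 6.78% of all genes. With the 12 markers as a term 0 members were called, and Nid1 stood at -2.25 (SE 0.54, adjusted p = 0.376). Without mouse 15 it stood at -3.37 (SE 0.61, adjusted p = 0.0526), and the call was also lost on leaving out 10 other libraries in turn (-3.21 to -2.88). In the second file series alone, which holds 1 treated control library, the interaction of Nid1 stood at -3.30.

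In macrophage libraries of control mice, CCl4 raised Tagln and Vim. These were the 2 of 37 tested members called (all but Nid2), against 13.2% of 10815 genes (6.77% higher and 6.39% lower), and by an unadjusted p under 0.05 7 members were higher and 2 lower, against 14% and 14.7% of all genes. The median log2 fold change of the members was 0.86, and that of all genes was -0.03. Tagln had 3.64, 4.19, 43.6 and 103 CPM in the 4 control mice with CCl4, and 0, 0, 1.73 and 3.53 CPM in the 4 without it. Every treated library lay above every untreated one, those of mice 15 and 16 by little, and Tagln rose by 4.37 (SE 1.00, adjusted p = 0.00883). Vim, which macrophages express themselves, had 1068, 1301, 2063 and 2403 CPM with CCl4 against 416, 564, 628 and 758 CPM without it. Its order was the reverse of that of Tagln, with the highest values in mice 15 and 16, whose libraries held the least quiescent marker RNA. Vim rose by 1.53 (SE 0.26, adjusted p = 0.000745). Without the library of mouse 11, Tagln rose by 3.00, and in the second file series alone by 4.71. With limma voom it was not called (4.04). The call of Vim was lost with endothelial markers as a term (0.85, SE 0.28, adjusted p = 0.0518), whose sums were 541 to 2129 CPM with CCl4 and 2556 to 3612 CPM without it. As these sums did not overlap, that fit separates marker level from treatment only by assuming a common slope.

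Acta2 had 7.86, 9.10, 129 and 168 CPM in macrophage libraries of control mice with CCl4, and 3.98, 5.37, 8.63 and 14.3 CPM in those without it, a log2 difference of 3.15 (SE 1.05, adjusted p = 0.0631). The libraries of mice 15 and 16 lay inside the untreated range and those of mice 11 and 12 far above it. Des had 0.524, 0.910, 13.5 and 19.5 CPM against 0, 1.34, 2.20 and 3.98 CPM (2.20, SE 0.90, adjusted p = 0.112). Col1a1 had 36.7, 41.9, 439 and 439 CPM against 30.2, 50.9, 65.0 and 104 CPM (1.94, SE 0.89, adjusted p = 0.167), and Col3a1 had 33.0, 36.4, 312 and 425 CPM against 47.6, 96.7, 142 and 155 CPM (0.86, SE 0.88, adjusted p = 0.556). For both collagens the libraries of mice 15 and 16 were again the low ones. Lrat had 0.910, 8.39, 11.4 and 27.3 CPM against 0, 4.70, 13.2 and 28.5 CPM, and Reln had 0, 4.19, 32.2 and 44.3 CPM against 5.58, 6.71, 17.9 and 18.99 CPM. For both quiescent genes the treated and untreated ranges overlapped, with log2 fold changes of 0.21 (SE 0.86) and 0.72 (SE 1.01). Fn1 had a log2 difference of -1.36 (SE 0.44, adjusted p = 0.0501).

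**Figure D4:**
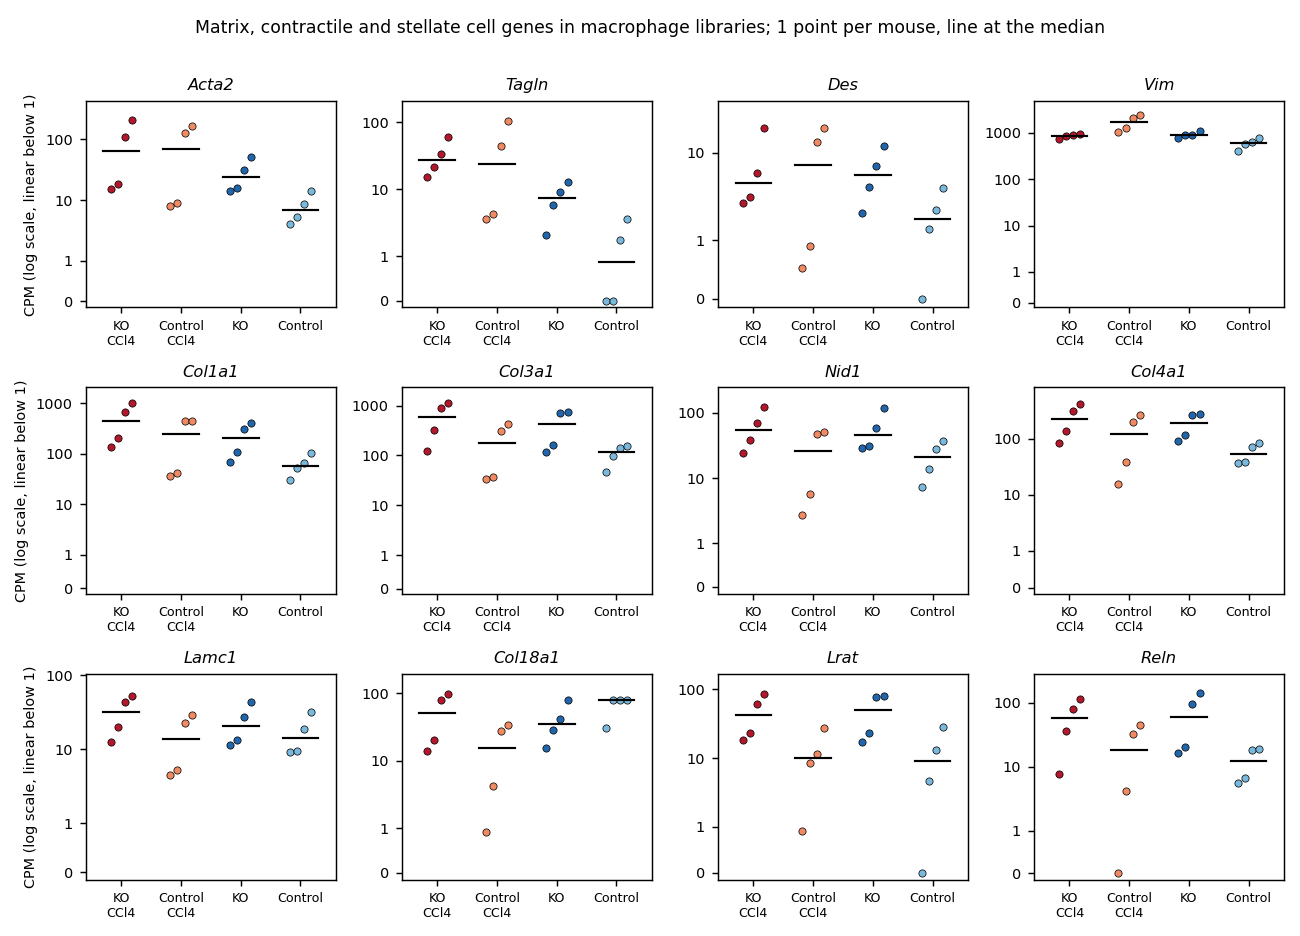
CPM of 12 members in each macrophage library, with axes, groups, points and lines as in the plot of hepatocyte libraries. In control mice with CCl4 most members split into 2 low and 2 high libraries, as for Acta2 at 7.86 and 9.10 against 129 and 168 CPM, whereas Vim lay at 1068 to 2403 CPM in all 4.

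With the 12 quiescent markers as a term, 5 members rose and 1 fell in macrophage libraries of control mice, against 19.2% of all genes called. Tagln (3.61, SE 0.65, adjusted p = 0.00056) and Vim (1.46, SE 0.23, adjusted p = 0.000264) were joined by Acta2 (2.27, SE 0.48, adjusted p = 0.00302), Col6a3 (1.36, SE 0.42, adjusted p = 0.0278) and Col1a1 (1.25, SE 0.35, adjusted p = 0.0167). The SE of Acta2 was 0.48 with the term and 1.05 without it, and that of Col1a1 was 0.35 and 0.89. Col3a1, at 0.26 (SE 0.29, adjusted p = 0.582), was not among them. Col18a1 had 0.910, 4.19, 27.3 and 34.2 CPM with CCl4 and 30.3, 79.1, 80.3 and 80.4 CPM without it, and fell by 2.38 with the term (SE 0.75, adjusted p = 0.0414). Hepatocyte markers, 2 of which fell, had sums of 383 to 14637 CPM with CCl4 and 17716 to 21253 CPM without it, and 4 of 12 endothelial markers fell in the same libraries. With the endothelial markers as a term 21 members rose and 0 fell, against 10.7% of all genes called, and Col18a1 was not called (-0.43, SE 0.70, adjusted p = 0.757). The endothelial sums did not overlap between treated and untreated controls. That fit therefore separates marker level from treatment only by assuming a common slope. The part of hepatocyte RNA in the change of Col18a1 was not tested.

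The KO called 0 of 37 members in macrophage libraries without CCl4 (edgeR; 0.166% of all genes were called, 0.0555% higher and 0.111% lower), with 14 members higher and 1 lower by an unadjusted p under 0.05, against 5.72% and 6.25% of all genes. DESeq2 called 1 member, Fn1, against 1.41% of all genes. With endothelial markers as a term edgeR called 8 members, all higher, against 1.78% of all genes. The counts of both KO comparisons also rose with no filter on low counts, as given below. Without a marker term, the log2 fold changes of 33 of the 37 were positive, with a median of 1.57 against -0.01 over all genes. The sums of the 12 quiescent markers were 248 to 1153 CPM in KO mice and 93.9 to 199 CPM in controls. With these markers as a term the median was -0.42, over all 37 members and also over the 33 that are not in the term. The sums did not overlap between the genotypes, so the fit separates marker level from genotype only by assuming a common slope. Whether stellate RNA accounts for the shift was not tested. Lrat had 17.4, 23.0, 78.6 and 80.9 CPM in KO mice and 0, 4.70, 13.2 and 28.5 CPM in controls (2.11, SE 0.82, adjusted p = 0.328), and Col3a1 had 118, 163, 709 and 758 CPM in KO mice (1.98, SE 0.90, adjusted p = 0.404). For both, mice 20 and 21 were higher than mice 4 and 5. After CCl4 the KO also called 0 of 37 members (edgeR; 0.0647% of all genes, 0.00925% higher and 0.0555% lower), with 6 higher and 1 lower by an unadjusted p under 0.05, against 4.52% and 3.53% of all genes. DESeq2 called Vim there, against 0.37% of all genes. With the 12 markers as a term 0 members were called as well (edgeR; 0.00925% of all genes). Vim had 723, 837, 881 and 928 CPM in KO mice with CCl4, below all 4 control mice with CCl4, a log2 difference of -1.02 (SE 0.25, adjusted p = 0.189). Tagln had 15.2, 21.7, 33.4 and 59.5 CPM in KO mice with CCl4, inside the control range (-0.31, SE 0.75, adjusted p = 0.937).

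CCl4 in KO mice called 0 of 37 members in macrophage libraries (edgeR; 0.878% of all genes, 0.767% higher and 0.111% lower), with 4 higher and 0 lower by an unadjusted p under 0.05, against 6.2% and 5.47% of all genes, and 0 called by DESeq2 or limma voom, against 1.92% and 0.767%. Tagln had 15.2 to 59.5 CPM with CCl4 and 2.05, 5.85, 9.05 and 12.9 CPM without it, with no overlap, and a log2 difference of 2.06 (SE 0.88, adjusted p = 0.365). With the 12 markers as a term it was called (2.08, SE 0.54, adjusted p = 0.0442), as was Col15a1, a basement membrane zone collagen (1.85, SE 0.48, adjusted p = 0.0493), against 2% of all genes. The interaction called 0 members (edgeR; 0.194% of all genes, 0.0647% higher and 0.129% lower), with 2 higher and 1 lower by an unadjusted p under 0.05, against 7.18% and 5.09% of all genes. DESeq2 called Vim, against 1.5% of all genes. Vim came nearest, at -1.64 (SE 0.36, adjusted p = 0.0721). With the 12 markers as a term it was called (-1.61, SE 0.33, adjusted p = 0.0167), as was Dpt, dermatopontin, a collagen-binding matrix protein (2.18, SE 0.56, adjusted p = 0.0461), against 1.91% of all genes.

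Contractile and quiescent genes were also set against each other within each library. Acta2, Tagln and Myl9 (a myosin light chain) together had 0.0455, 0.158, 0.239 and 0.942 counts per count of the 12 quiescent markers in hepatocyte libraries of KO mice with CCl4, and 0.302, 0.302 and 0.554 in control mice with CCl4. Without CCl4 the ratio was 0.0278 to 0.11 in KO mice and 0 to 0.116 in controls. In macrophage libraries it was 0.115, 0.186, 0.236 and 0.363 in KO mice with CCl4, 0.215, 0.316, 0.601 and 0.637 in control mice with CCl4, 0.0406 to 0.107 in KO mice without CCl4 and 0.0343 to 0.15 in control mice without CCl4. Treated libraries lay above untreated ones of the same genotype in macrophages of both genotypes and in hepatocytes of controls, and overlapped in hepatocytes of KO mice, where mouse 17 had 3 contractile counts. The macrophage libraries of mice 15 and 16, whose Acta2 level was inside the untreated range, had ratios of 0.215 and 0.316. Col1a1, Col1a2 and Col3a1 together had 1.52 to 5.70 counts per quiescent count in hepatocyte libraries of KO mice with CCl4 and 1.16 to 3.83 in control mice with CCl4, against 0.861 to 1.84 in KO mice and 0.34 to 7.28 in control mice without CCl4. In macrophage libraries the values were 1.87 to 3.43, 1.41 to 4.84, 1.22 to 1.96 and 1.10 to 1.98 in the same 4 groups. These sums were formed after the values had been seen and carry no test.

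**Figure D5:**
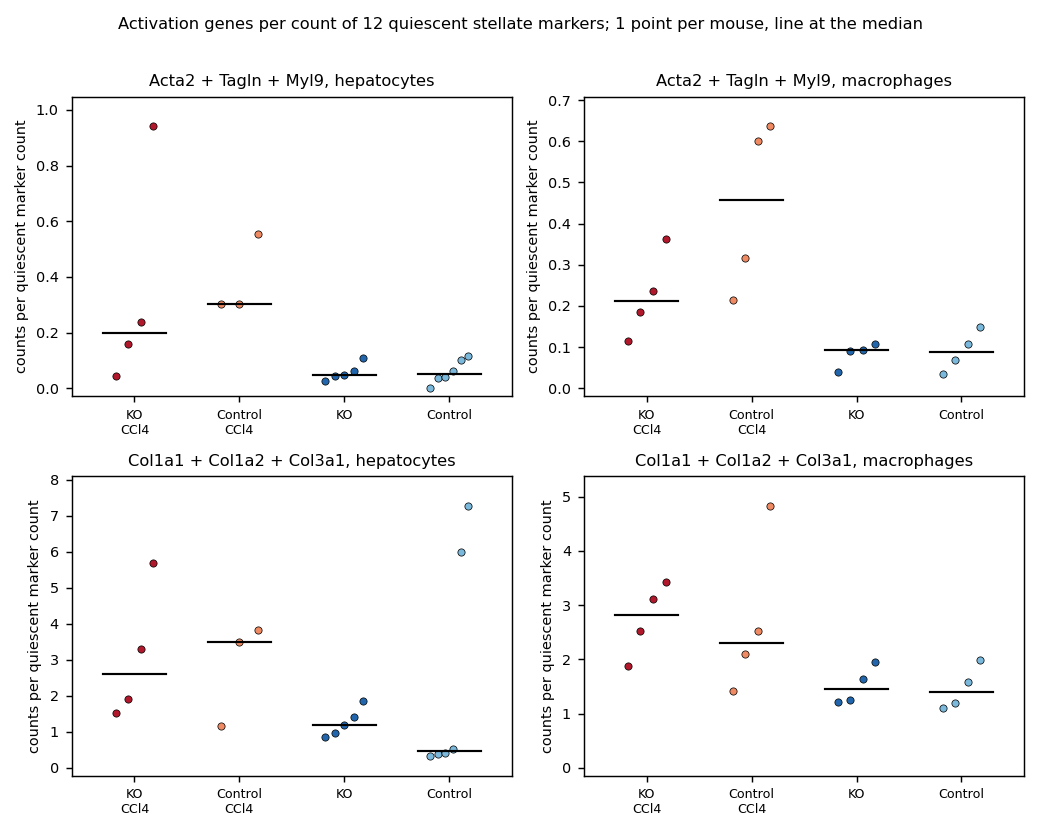
Counts of 3 contractile genes (top) and 3 fibrillar collagens (bottom) per count of 12 quiescent stellate markers in each hepatocyte (left) and macrophage (right) library; points are mice and lines are medians. The contractile ratio had medians of 0.199 and 0.302 in hepatocyte libraries of KO and control mice with CCl4, and 0.0495 and 0.0521 without it; the 2 highest fibrillar ratios among hepatocyte controls, 6.00 and 7.28, rest on 1 and 43 quiescent counts.

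Called genes of related lists are given next. For CCl4 in hepatocyte libraries of control mice, 13.7% of all genes were called higher and 13.7% lower. In hepatocyte libraries of control mice CCl4 raised the TGF-beta signalling genes thrombospondin 1 (Thbs1, 2.57), which activates latent TGF-beta, and Skil (1.13), a feedback inhibitor of SMADs. Of 12 collagen processing genes 3 rose, the collagen chaperone Serpinh1 (2.65), the procollagen proteinase enhancer Pcolce (1.61) and the prolyl hydroxylase P3h1 (0.81), and 2 fell, the procollagen export factor Mia3 (-0.74) and the procollagen proteinase Bmp1 (-0.66). Of 13 matrix receptors 4 rose, Itga6 (2.01), Ddr1 (2.03), Cd44 (3.37) and Itga5 (2.36), and Sdc2 fell by 0.96. Among 5 tested stellate mitogens Ccn2 rose by 2.53 and Vegfa fell by 0.70, and Timp1, which inhibits matrix proteases, rose by 3.67. Of vascular smooth muscle genes, which share Acta2 and Tagln with stellate cells, 2 of 8 were tested and Smtn rose by 2.84, and 0 of 3 tested portal fibroblast markers were called.

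The KO without CCl4 raised Tgfb2 (2.24), a TGF-beta ligand, and its receptor Tgfbr2 (1.30) in hepatocyte libraries, with Ccn1 (2.22) and Pdgfa (1.89) among mitogens and Cd44 (2.96), Itga5 (2.32) and Ddr1 (1.66) among matrix receptors, while Sdc4 fell by 0.79. No tested collagen processing gene was called there. Of all genes, 4.64% were called higher and 3.23% lower in this KO comparison. The first file series held no KO library, so genotype and series partly coincide. The share of all genes called, 7.87%, was 0.816% once the fit allowed for the series. It was 0.487% among libraries of the second series. Whether the related genes named here kept their calls in those fits is not given. In macrophage libraries of control mice CCl4 raised Thbs1 (1.14), Pdgfa (1.31), the integrin Itgav (0.87), the tropomyosin Tpm2 (2.61) and the actin-severing gelsolin Gsn (1.30). There 0 of 15 tested collagen processing genes were called, against 13.2% of all genes.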

How the data were processed

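RNA of sorted hepatocytes (18 libraries) and macrophages (16 libraries) was sequenced with QuantSeq 3′ FWD as single reads of 50 bp. The submitters' processing notes name Trimmomatic 0.39, HISAT2 2.1.0 and the builds GRCm38 and mm10; which program counted the reads, with which annotation and strand, is not given in the sources used here. The values the authors deposited are raw counts per gene symbol. Groups came from the genotype and treatment labels. Each cell type was fitted over its 4 groups with edgeR 4.0.16 (R 4.3.3): filterByExpr at a minimum count of 10, TMM scaling, a robust quasi-likelihood fit (legacy = FALSE, chosen after both forms were run) and Benjamini-Hochberg adjustment over all genes at 0.05. CPM are TMM-scaled. Standard errors are the log2 fold change divided by the root of F and are approximate. The marker term is the log2 summed CPM of the markers plus 1. Alternatives were DESeq2 1.42.0, limma 3.58.1 voom, RLE size factors, no filter, the file series as a term or the second series alone, marker terms, libraries left out and the legacy fit; the 12-marker term without Steap4, the endothelial term, the second series alone and the legacy fit were chosen after seeing the data. Between replicates, chi-square tests of the counts gave 5.16 to 42.5 per degree of freedom, so no library was counted as a copy of another. The p-values measure the spread between these mice; counting limits (3 counts) cover counting error only. Scripts were tested on simulated data. Values in every library are given for members called in at least 1 comparison (the 3 of lowest p in each) and for Acta2, Tagln, Col1a1, Col3a1, Lrat, Reln and Des; of other lists, called genes of lowest p. The members and lists were chosen with earlier results of these data known. Part of the TGF-beta signalling list is not reported here.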

Additional observations from a re-analysis of the deposited data

Results flagged for a closer look

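In 6 of 98 tests, over 7 groups of libraries for each of the 12 members given in full and the 2 ratios to quiescent counts, the highest or lowest library stood far from the others; chance alone gives about 1 in 20. In hepatocyte libraries of control mice without CCl4, mouse 19 had 65.8 CPM of Col1a1 (0.637 to 11.7 CPM in the other 5), 102 CPM of Col3a1 (0.212 to 24.6 CPM) and 74.3 CPM of Vim (2.55 to 18.8 CPM). The same library had 0 counts of Tagln and of Reln. In hepatocyte libraries of KO mice with CCl4, mouse 14 had 149 CPM of Col1a1 (32.8 to 40.8 CPM in the other 3) and 27.1 CPM of Lamc1 (10.7 to 13.1 CPM). In macrophage libraries of control mice without CCl4, mouse 7 had 30.3 CPM of Col18a1, against 79.1 to 80.4 CPM in the other 3.

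The CCl4 response of Nid1 in hepatocyte libraries differed between KO and control mice by -3.18 on the log2 scale in the test of the difference itself. Its log2 fold change was 0.70 in KO mice and 3.88 in control mice, with 26.7 to 94.5 CPM in KO mice and 0.902 to 8.49 CPM in control mice without CCl4. The call of this difference was kept in 12 alternatives and lost in 17, among them either marker term, the endothelial term and the legacy fit. The same 6 control libraries without CCl4 enter both comparisons in which Nid1 was called higher.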

How the results depend on the processing

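No member call changed sign under any alternative run. Counts of members called moved as follows. In hepatocyte libraries, the count for CCl4 in control mice was 17, and 11 with the 12-marker term and 4 in the second file series alone. For the KO without CCl4 it was 6, and 1 with the 12-marker term (2.76% of all genes called), the 13-marker term (0.661%), the file series as a term (0.816%) or the second series alone (0.487%). It was 3 with the endothelial term (3.94%) and 13 with limma voom (10.7%). For the KO after CCl4 it was 1, and 0 with either marker term, the endothelial term, the series term, the second series alone, the legacy fit, limma voom or without the library of conflicting label. For CCl4 in KO mice it was 1, and 3 with the 12-marker term (14.6% of all genes), 6 with the endothelial term (14.3%), and 0 with no filter or in the second series alone (12.1%). For the interaction it was 1, and 3 with DESeq2 (0.63% of all genes) or no filter, 4 with limma voom (0.341%) and 2 with the series term (0.558%). It was 0 with either marker term, the endothelial term, the legacy fit or without the library of conflicting label. In the second series alone, which holds 1 treated control library, the interaction of Nid1 stood at -3.30.

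In macrophage libraries, the count for CCl4 in control mice was 2, and 6 with the 12-marker term (19.2% of all genes called) and 7 with the 13-marker term (18.5%). It was 21 with the endothelial term (10.7%), 19 with no filter, 4 with DESeq2 (15.6%) and 1 with limma voom (14.1%). The endothelial sums did not overlap between treatments in this comparison, so the count of 21 rests on an assumed common slope. For CCl4 in KO mice it was 0, and 2 (2% of all genes), 4 (2.02%) and 6 (5.94%) with those 3 terms and 6 with no filter. For the interaction it was 0, and 2 with the 12-marker term (1.91% of all genes) or the 13-marker term (1.84%) and 5 with no filter. It was 1 with DESeq2 (1.5%) or without the library of conflicting label (0.21%). For the KO after CCl4 it was 0, and 1 with DESeq2 (0.37% of all genes) and 14 with no filter. For the KO without CCl4 it was 0, and 1 with DESeq2 (1.41% of all genes), 22 with no filter and 8 with the endothelial term (1.78%). The share of all genes called with no filter is not given here, so those counts cannot be read as particular to the members. The cause of these shifts was not tested.

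Leaving out 1 library at a time gave 12 to 22, 2 to 9, 0 to 1, 0 to 2 and 0 to 4 members in the hepatocyte comparisons in the order above, and 2 to 3, 0 to 0, 0 to 1, 0 to 0 and 0 to 0 in the macrophage ones. The shares of all genes called in these fits are not given here. Nid1 in both of its higher comparisons, and Col4a1 and Lum for CCl4 in control mice, kept their calls in all 29 alternatives. No paired analysis was possible because the mouse numbers of the groups compared within a cell type do not overlap. At 3 counts a hepatocyte library resolves 0.398 to 3.22 CPM by its total count, before TMM scaling. This limits Tagln, Des and Reln in the shallow hepatocyte libraries.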
